A study of Mus musculus with 4 samples.

Results

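The comparison described here set AEPS-stimulated RAW264.7 cells labelled Linc-AAM knockdown against AEPS-stimulated cells labelled scramble. Its members are 2 of the 4 arrays of the series, chosen by the labels of the scanner files, with 1 array a side and no replicate. RAW264.7 is a mouse cell line with macrophage properties. The other 2 arrays held the same 2 cell populations kept in DMEM, the plain culture medium. All 4 groups came from cultures in DMEM with serum and antibiotics, carried a vector that expresses an artificial microRNA (with EmGFP, per the labels), and were selected with blasticidin at 6 µg/mL as bulk cultures rather than as single clones. The vector was either a scramble control or targeted Linc-AAM, which the name marks as a long intergenic RNA. The stimulated groups received AEPS at 50 µg/mL for 4 h. The labels do not expand the name AEPS, which is known as a polysaccharide preparation from a kiwifruit plant that activates macrophages. The question was how the 2 lines differ once they are stimulated.

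A level below is the log2 of an array's processed spot signal minus the 75th percentile of that array, so that 0 marks a gene as bright as that percentile and each unit is a factor of 2. A difference is the level on the array labelled knockdown minus the level on the array labelled scramble. Levels of different genes come from different probes and are not set against each other. A gene was called when its signal was well above background on each AEPS array and the levels lay 2-fold or more apart. Where only 1 array was well above background, the gene was called when a lower limit of the fold reached 2, and such folds are written "at least". With 1 array a side these calls are of size only, no test of a single gene under AEPS was possible, and the number of arrays limits the precision. Repeated spots of 1 probe had a median SD of 0.0465 (log2, within the scramble array) and 0.0383 (within the knockdown array), which covers spot error and not the spread between cultures. Both arrays lay on the same slide and shared 1 scan. Probes well above background made up 56.1% of the scramble AEPS array and 54.8% of the knockdown AEPS array, the 75th percentile intensities were 510 and 447, and 0 spots were saturated.

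The naming of the lines is uncertain. The deposited series value table exchanges the 2 lines: its column labelled scramble under AEPS ranked the probes as the scanner file labelled knockdown under AEPS did (Spearman rho across probes 1.0 after rounding) and less like its own scanner file (0.969). Under the table's labels the sign turned for 28 of 28 genes named for their size and for 100% of the 2-fold calls among genes well above background on both AEPS arrays. Some list medians near 0 kept theirs, such as that of glycolysis and hypoxia genes (-0.041 here and -0.023 in the table). Lines are therefore called "labelled knockdown" and "labelled scramble" as on the scanner files. Linc-AAM was not matched to a probe by name, so the knockdown itself was not checked here. The cells carried several defining genes of macrophages on both AEPS arrays: Csf1r, the receptor for macrophage colony-stimulating factor, was at 8.36 and 8.49 (scramble, then knockdown), Tyrobp at 7.29 and 7.39, Lyz2 at 6.97 and 6.07, Itgam at 4.23 and 4.46, Ptprc at 3.31 and 2.80, Cd68 at 2.996 and 2.84, and Adgre1 at 2.68 and 2.32. Of 31 macrophage identity genes on the array, Mertk, Cd163, Timd4 and Vsig4 were not well above background on either AEPS array. Of 18 markers of lymphocytes, granulocytes and dendritic cells on the array, 10 were not well above background on either AEPS array, among them Ms4a1, Cd8a, Mpo and S100a9. The 8 that were measured included Siglech (7.94 and 7.75) and Cd4 (2.21 and 2.30). Their median difference was 0.015 (range -0.80 to 0.27), and their part in the results was not tested.

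Many of the gene lists below belong to the type I interferon response, whose working is given as background. Macrophages that sense microbial sugars, nucleic acids or lipopolysaccharide activate NF-kB and interferon regulatory factors, which switch on Ifnb1. The secreted interferon binds the receptor made of Ifnar1 and Ifnar2 on the same and neighbouring cells. JAK kinases then phosphorylate STAT factors, which with IRF9 form a complex, ISGF3, that binds a short promoter sequence, the interferon-stimulated response element or ISRE. The genes behind it encode proteins that block viruses and intracellular bacteria, load antigens, and feed back on the pathway itself.

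Of 22784 genes measured on 1 or both AEPS arrays, 607 were called lower on the array labelled knockdown, which is 2.66% of those measured, and 428 were called higher, which is 1.88%. Both arrays measured 447 of the lower and 317 of the higher genes, and the others rest on a limit. The alternative normexp background correction added an offset of 50 to each corrected signal before log2, which draws differences of dim genes toward 0. With normexp background correction the counts were 329 lower and 156 higher, and 17 genes named below no longer reached 2-fold: Ifna13, Tlr3, Ddx60, H2-DMb1, Csf1, Il23a, Cx3cl1, Ccl12, Tlr1, Nod1, Tnfaip3, Alox5, Timp2, Col1a1, Pdgfrb, Mapk12 and Trim47. Most genes lay close together: among 21182 genes on both arrays the median difference was 0.011, and 90.5% lay within 1.5-fold. Negative differences made up 48.0% of these genes, the share beside which the sign counts of lists below stand. The large differences leaned downward. At 4-fold or more, 126 genes were lower and 47 higher, and at 8-fold or more, 27 were lower and 12 higher. A set of 6 lists of interferon effector genes held 83 measured genes, of which 56 (67.5%) were lower and 0 higher, beside 2.66% and 1.88% of all genes, with a median difference of -1.47 beside 0.006 over all measured genes. These 56 genes were 9.2% of all genes called lower.

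**Figure D1:**
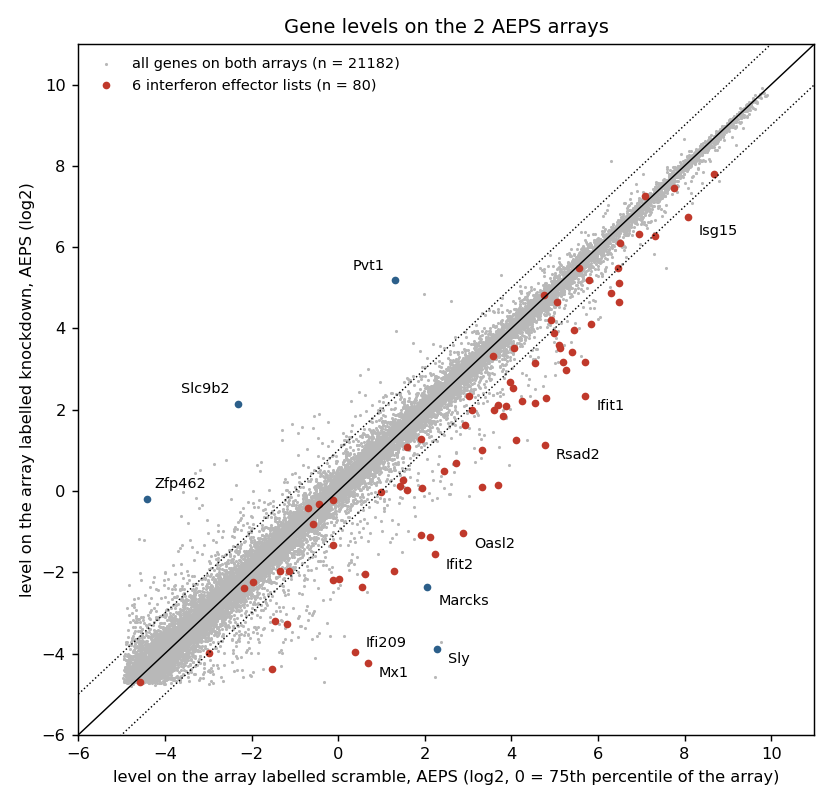
Levels of 21182 genes on the array labelled scramble (x) and labelled knockdown (y) under AEPS, both in log2 units relative to the array's 75th percentile, with 1 point a gene, a solid line at equal levels, dotted lines at 2-fold, 80 genes of the interferon effector lists in red and other labelled genes in blue. Most red points lie below the line of equality, with Mx1 at 0.68 and -4.23, while Slc9b2, Pvt1 and Zfp462 lie far above it.

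Among the interferon ligands, Ifnb1, the first interferon that macrophages make, stood out. Its level was 2.60 on the scramble array and 0.18 on the knockdown array, a difference of -2.42 or 5.36-fold. The list held 16 genes, of which 13 were on the array and 10 were measured. Of these 2 were called lower, 0 higher, and the median difference was -0.14. The other called gene, Ifna13, was dim on both arrays (-3.46 and -4.48, 2.02-fold lower), and the remaining measured ligand genes, most of them near-identical alpha interferon genes whose probes may share signal, had differences between -0.26 and 0.35. Ifng, Ifne and Ifna4 were not well above background on either array. In DMEM the Ifnb1 probe was not well above background on either array.

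None of the 5 measured interferon receptor genes was called, beside 2.66% of all measured genes called lower and 1.88% higher. At those shares so few genes would be likely to hold no call. Ifnar1 was at 1.55 and 1.48 and Ifnar2 at 3.85 and 3.47, and the 5 measured receptor genes had a median difference of -0.067 (range -0.38 to 0.23). Below the receptor, 2 of 10 measured JAK and STAT genes were called lower and 0 higher (list median -0.30). Stat2, a subunit of ISGF3, was at 3.81 on the scramble array and at 1.997 on the knockdown array (3.51-fold lower). The kinases Jak1 (difference 0.13), Tyk2 (-0.025) and Jak2 (-0.35) were not called. Irf9, which joins Stat2 in ISGF3, stood at 4.08 and 3.54 (difference -0.53) and was not called.

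Interferon regulatory factors, which drive the interferon genes and their targets, had 3 of 9 genes lower and 0 higher (median -0.33). All 9 differences were negative, beside 48.0% of all genes on both arrays. In DMEM the list median was -0.30, and 4 of the 9 genes were more negative under AEPS than in DMEM. Irf7, which amplifies interferon production and is itself an interferon target, was at 1.76 and -0.40 (4.47-fold lower). Irf1 was at 4.43 and 2.35 (4.25-fold lower) and Irf4 at 2.61 and 1.31 (2.47-fold lower). The factors that act before any interferon is made were close to equal: Irf3 was at 4.47 and 4.38 and Irf5 at 4.48 and 4.46.

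Among 13 measured brakes on interferon signalling 5 were lower and 0 higher, with a list median of -0.076. Usp18, which removes Isg15 from proteins and blocks the receptor, was at 5.60 and 3.33 (4.83-fold lower). Socs1, an inhibitor of JAK kinases, was at 1.47 and -0.18 (3.13-fold lower), and Trex1, a DNase that destroys stray DNA, at 7.28 and 5.83 (2.75-fold lower). Nmi (2.43-fold) and Cish (2.12-fold) were the others. The phosphatases and PIAS genes of this list, such as Ptpn6 (difference 0.27) and Pias1 (0.29), were not called.

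Genes that sense nucleic acids act before interferon, and several are also its targets. Of 17 measured genes 7 were lower and 0 higher, with a median of -0.58. The RNA sensors Ifih1 (5.00 and 3.15), Ddx58, which encodes RIG-I (4.77 and 2.84), and Dhx58 (3.24 and 1.51) were 3.61-fold, 3.80-fold and 3.31-fold lower. Zbp1, a sensor of Z-form nucleic acids, was at 3.71 and 1.08 (6.195-fold lower), and Cgas, the DNA sensor, at 5.07 and 3.93 (2.20-fold lower). Tlr3 and Ddx60 were well above background only on the scramble array, at least 3.16-fold and 2.16-fold higher there. The adaptors and kinases downstream of these sensors were not called, with Mavs at 2.23 and 2.19, Sting1 at 1.52 and 1.62, Tbk1 at 1.76 and 1.37 and Ticam1 at 2.52 and 2.36.

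Antiviral effector genes are the products of this pathway that act on viruses. Of 34 measured genes 25 were lower on the knockdown array and 0 higher, with a median difference of -1.42 and a range from -4.91 to 0.17. Mx1, a dynamin-like GTPase that blocks influenza viruses (probe on chromosome 16, 97668644 to 97668703, in the mm9 build the array gives), was at 0.68 on the scramble array and at -4.23 on the knockdown array, 30.1-fold lower. The Ifit genes, which bind viral RNA, differed nearly as much: Ifit1 was at 5.71 and 2.34 (10.3-fold lower), Ifit2 at 2.24 and -1.55 (13.9-fold lower) and Ifit3 at 3.69 and 0.14 (11.7-fold lower). Rsad2, which encodes viperin, was at 4.77 and 1.14 (12.4-fold lower), and its neighbour Cmpk2 at 3.32 and 0.09 (9.39-fold lower).

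Other members of the list differed by smaller folds. Isg15, the ubiquitin-like modifier, was at 8.07 and 6.74 (2.52-fold lower), and Bst2, which tethers budding viruses to the cell, at 5.10 and 3.59 (2.84-fold lower). Isg20 (7.20-fold) and Mx2 (5.75-fold) lay between. Eif2ak2, the RNA-activated kinase PKR (2.14-fold), and Adar, the RNA-editing enzyme (2.12-fold), were just past the 2-fold line, and Ifi27l2a (difference -0.98) and Sp100 (-0.82) just short of it. The 9 genes that were not called included Ifitm3 (-0.62), Ifitm2 (0.073) and Ifi27 (0.17). For Sp110, whose brightest probe had -0.31, 3 probes ranged from -2.14 to -0.31, so its value depends on the probe, and Adar had -0.86 with the median over its probes.

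**Figure D2:**
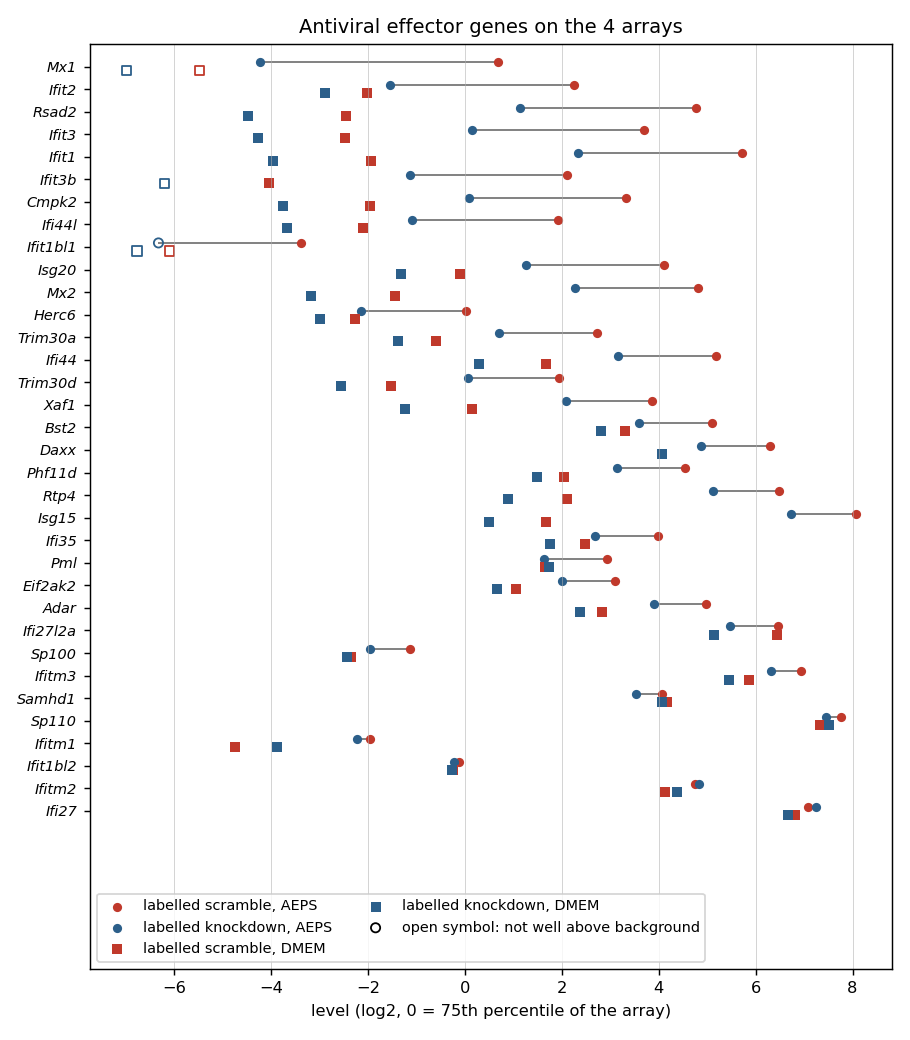
Level (x, log2 relative to the array's 75th percentile) of each of 34 antiviral effector genes on the 4 arrays, sorted by the difference under AEPS, with circles for AEPS, squares for DMEM, red for labelled scramble and blue for labelled knockdown, grey lines joining the AEPS arrays and open symbols for signals not well above background. In most rows the blue circle lies left of the red circle, by 4.91 units for Mx1 down to a fraction of a unit for Ifitm1, and to its right for Ifitm2 and Ifi27.

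The start regions of 6 genes of the interferon effector lists are printed to show the ISRE letters that many such genes carry. All 6 hold these letters, so they do not stand for the lists. Ifit2, for one, had no such letters in the window searched. Each line is the strand of the gene, 5′ to 3′, for the 160 bases before the RefSeq start in the GRCm38.p6 build, and capitals mark every match to the ISRE core, searched as GAAA, any 2 bases, GAAA, and on the other strand as TTTC, any 2 bases, TTTC. The windows are chr19:34640729-34640888 (Ifit1), chr19:34583369-34583528 (Ifit3), chr12:26456453-26456612 (Rsad2, minus strand), chr4:156200819-156200978 (Isg15, minus strand), chr3:142620503-142620662 (Gbp2) and chr11:49064213-49064372 (Tgtp2, minus strand).
Ifit1: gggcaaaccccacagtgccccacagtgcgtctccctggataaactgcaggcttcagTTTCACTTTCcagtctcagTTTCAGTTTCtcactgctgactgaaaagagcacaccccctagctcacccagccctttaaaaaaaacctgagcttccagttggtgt
Ifit3: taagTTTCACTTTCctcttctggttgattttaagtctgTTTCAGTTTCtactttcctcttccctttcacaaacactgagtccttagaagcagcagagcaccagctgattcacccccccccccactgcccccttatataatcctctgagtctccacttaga
Rsad2: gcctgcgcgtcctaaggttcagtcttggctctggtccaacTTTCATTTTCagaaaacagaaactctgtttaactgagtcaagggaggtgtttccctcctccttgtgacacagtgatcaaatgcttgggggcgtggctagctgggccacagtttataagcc
Isg15: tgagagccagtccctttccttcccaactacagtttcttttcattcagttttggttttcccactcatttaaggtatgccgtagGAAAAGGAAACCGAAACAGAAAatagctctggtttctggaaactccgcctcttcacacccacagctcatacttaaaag
Gbp2: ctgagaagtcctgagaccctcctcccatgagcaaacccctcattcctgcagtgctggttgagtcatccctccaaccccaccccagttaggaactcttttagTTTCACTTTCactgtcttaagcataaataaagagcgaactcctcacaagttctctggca
Tgtp2: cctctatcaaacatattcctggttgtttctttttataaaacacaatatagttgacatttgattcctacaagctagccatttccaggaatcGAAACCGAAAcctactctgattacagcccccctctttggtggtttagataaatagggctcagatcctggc
Ifit1 and Ifit3 hold 2 matches each, Isg15 holds 3 that overlap, and Rsad2, Gbp2 and Tgtp2 hold 1 each. A match describes letters and is neither a binding site nor a cause.

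The letters were then counted in all RefSeq promoter windows, which run from 250 bases before to 50 bases after a start. An ISRE core on either strand lay in 3.44% of 32851 windows, in 2.69% of windows of measured genes called neither way and in 2.29% (7 of 306) of windows of genes called higher. Genes called lower had it in 19.05% (72 of 378). Outside the interferon effector lists the share among genes called lower was 12.85% (41 of 319). Within those lists, windows of genes called lower held it in 52.54% (31 of 59) and windows of genes called neither way in 43.48% (10 of 23), so that the letters also occurred in list genes that were not called. A palindromic GAS core (TTCNNNGAA, the element of STAT dimers) lay in 8.3% of all windows, 12.7% of those of genes called lower and 5.88% of those of genes called higher. An NF-kB core (GGG, any 2 bases, TTTCC, on either strand) lay in 1.63%, 2.38% and 4.25%. The motifs can overlap one another, windows of 1 gene share bases, and of 607 genes called lower 318 had a window. No test was made of these shares, since genes are not independent.

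**Figure D3:**
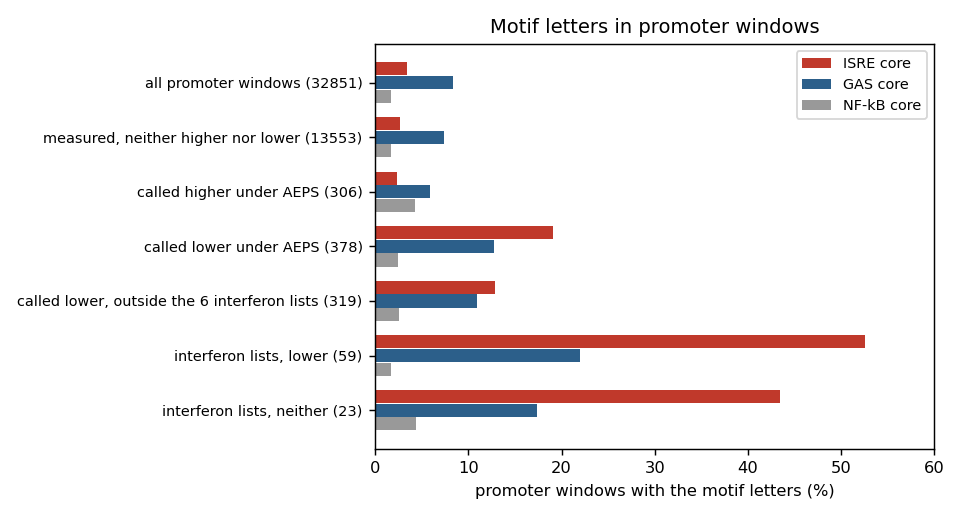
Share of promoter windows (x, percent, from 0) that hold each of 3 motif letter strings, for 7 sets of genes with the number of windows in brackets. The ISRE bar is 19.05% for genes called lower, 2.29% for genes called higher and 3.44% for all windows, and is longest for listed interferon genes.

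Oligoadenylate synthetases sense viral RNA, and of 9 measured Oas genes, all on chromosome 5, 5 were lower and 0 higher. Several lay close to the 2-fold line, and 3 were lower with quantile normalization, which ended the call of Oas1a. Oasl2 was at 2.89 and -1.04 (15.2-fold lower), Oas3 at 1.49 and 0.27 (2.33-fold lower) and Oas1a at 7.32 and 6.28 (2.06-fold lower).

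Guanylate-binding proteins and immunity-related GTPases attack the vacuoles of intracellular pathogens, and theirs was the most negative list median, -2.08. Of 15 measured genes 11 were lower and 0 higher. Gbp2 was at 1.29 and -1.96 (9.55-fold lower), Gbp5, which helps inflammasome activation, at 0.63 and -2.05 (6.38-fold lower), and Tgtp2 at -1.52 and -4.39 (7.29-fold lower). Igtp was at 4.55 and 2.16 (5.25-fold lower) and Irgm1 at 5.39 and 3.42 (3.93-fold lower). Gbp6 (difference 0.28), Gbp10 (-0.22), Iigp1 (-0.24) and Tgtp1 (-0.13) were measured and not called by their brightest probe, and Gbp4, Gbp8 and Gbp11 were not well above background on either array. With the median over the probes of a gene Gbp6 had -3.99 and Iigp1 -1.30, and 13 of the 15 genes were lower.

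Interferon-induced PARP genes, which encode ADP-ribosyltransferases and partners, had 5 of 7 lower and 0 higher (median -1.47). Parp14 was at 5.69 and 3.19 (5.69-fold lower) and Dtx3l, a ubiquitin ligase that pairs with Parp9, at 3.59 and 1.99 (3.04-fold lower). Of 7 measured Schlafen genes 4 were lower and 0 higher (median -1.55). Slfn4 was at 4.25 and 2.21 (4.11-fold lower), and Slfn5 was well above background only on the scramble array, at least 6.99-fold higher there. Slfn8 had 3.95-fold less signal by its brightest probe, and its 2 probes ranged from -1.98 to -0.52.

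The Ifi200 cluster encodes DNA-binding proteins with a HIN domain, among them the inflammasome sensor Aim2. Of 10 measured genes 6 were lower and 0 higher, and all 10 differences were negative (median -1.66). Ifi209 was at 0.38 and -3.97 (20.4-fold lower), Ifi202b at 5.25 and 2.98 (4.84-fold lower) and Ifi204 at 6.50 and 4.66 (3.56-fold lower). With the median over its probes Ifi209 had a difference of -2.58. Aim2 itself had a difference of -0.49 and was not called. Probes within this family can share sequence: the 4 probes of Ifi203 ranged from -2.13 to -0.39 and the 2 of Ifi204 from -3.38 to -1.83.

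These families lie in gene clusters, and their counts differed from cluster to cluster. On chromosome 3 (mm9, probes from 142184779 to 142300778) 5 of 5 measured Gbp genes were lower, while on chromosome 5 (105443951 to 105752204) 1 of 3 was, namely Gbp9 (difference -2.09). That second count depends on the probe, since Gbp6, not called by its brightest probe, had -3.99 with the median over its probes. On chromosome 19 (34650244 to 34723855) 5 of 6 measured Ifit genes were lower, the exception being Ifit1bl2 (-0.10). Slfn genes on chromosome 11 (82774907 to 83028490) were lower in 4 of 7 cases and the Ifi200 genes on chromosome 1 (175396036 to 175893982) in 6 of 10. Chromosome 1 had the largest share of measured genes called lower (4.58% of 1333), ahead of chromosome 3 (3.37%) and chromosome 19 (3.21%). Without the interferon effector genes these shares were 4.17%, 2.66% and 2.54%, beside 2.43% over the genome.

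Class I antigen presentation shows pieces of cell proteins to T cells, and interferon raises many of its genes. All 23 measured genes had negative differences (median -0.58), of which 6 were called lower and 0 higher. Of the called genes 4 serve to cut peptides or carry them to class I molecules: the peptide transporter gene Tap1 was at -0.86 and -3.33 (5.57-fold lower) and Tap2 at 3.57 and 2.35 (2.32-fold lower), and the immunoproteasome subunit genes Psmb9 (3.62 and 2.10) and Psmb8 (4.55 and 3.26) were 2.86-fold and 2.45-fold lower. Nlrc5, the transactivator of class I genes, was at 2.31 and 0.66 (3.13-fold lower) by its brightest probe, but its 2 probes ranged from -1.65 to -0.75. H2-T22, a class I-like gene, was 2.60-fold lower. The presenting molecules were closer: B2m was at 7.42 and 7.01, H2-K1 at 6.66 and 6.30 and H2-D1 at 5.53 and 5.21, and probes of these similar class I genes may share signal.

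Class II and costimulation genes had 2 of 13 measured genes lower and 0 higher (median -0.53). Cd40, the costimulatory receptor, was at 4.59 and 3.48 (2.15-fold lower), and H2-DMb1, which helps load class II molecules, at -0.63 and -1.93 (2.47-fold lower). Cd80 (difference 0.22), Cd83 (-0.32) and Cd274, which encodes PD-L1 (-0.64), were not called. H2-Aa, H2-Ab1 and Ciita, the class II regulator, were not well above background on either AEPS array.

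Proinflammatory cytokine genes carry the alarm to other cells. Of 21 measured genes 4 were lower and 1 higher, with a median of -0.64, and 19 of the 20 on both arrays had negative differences. Tnfsf15 was at 2.43 and 0.07 (5.13-fold lower), Il15 at -0.17 and -1.99 (3.55-fold lower), Il6 at 1.84 and 0.14 (3.25-fold lower) and Csf1 at 1.56 and 0.54 (2.03-fold lower). Il23a, a subunit of IL-23, went the other way from dim signals (-4.37 and -3.27, 2.15-fold higher). Tnf was at 8.40 and 7.57 and Il1b at 8.48 and 8.13, and neither was called.

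Chemokine genes had 5 of 18 measured genes lower and 1 higher (median -0.59). Cxcl10, an interferon-inducible attractant of T cells, was at 7.57 and 5.498 (4.21-fold lower). Ccl5 was at 8.80 and 7.63 (2.25-fold lower), Ccl2, which draws monocytes, at 8.18 and 7.09 (2.12-fold lower), and Cx3cl1 was 2.12-fold lower. Ccl12 was well above background only on the scramble array, at least 2.48-fold higher there. Cxcl3, a neutrophil attractant, was at -0.91 and 0.35 (2.398-fold higher). Cxcl2, another neutrophil attractant, was at 7.14 and 6.47 (difference -0.67). Among 6 measured chemokine receptor genes only Ccrl2 was called (1.44 and -0.15, 2.996-fold lower), and the list median was 0.49.

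Upstream parts of the inflammatory response were closer to equal. Of 26 measured Toll-like receptor and adaptor genes 3 were lower and 0 higher (median -0.23). Nod2, the sensor of muramyl dipeptide, was at 1.46 and 0.08 (2.60-fold lower) and Tlr1 at 2.42 and 1.40 (2.02-fold lower), while Nod1 was well above background only on the scramble array (at least 2.17-fold). Tlr4 (-0.032 and 0.74), Tlr2 (7.46 and 6.95) and Myd88 (4.51 and 4.23) were not called. Of 21 NF-kB subunit and feedback genes 1 was lower, the feedback inhibitor Tnfaip3 (5.15 and 4.14, 2.01-fold, just past the line), and 0 higher (median -0.15). The subunits Rela (difference -0.082), Relb (-0.066) and Nfkb1 (0.042) were not called.

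Immediate early genes, switched on within minutes of a stimulus, had 1 of 26 measured genes lower and 2 higher (median -0.17). Atf3, a stress-induced repressor of inflammatory genes, was at 3.96 and 2.01 (3.87-fold lower). Nr4a2, an orphan nuclear receptor, was at -0.14 and 1.23 (2.57-fold higher). Fosl2 was 2.14-fold higher by its brightest probe (1.72 and 2.82), but its 2 probes ranged from -0.14 to 1.098.

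Enzymes that make nitric oxide, prostaglandins, leukotrienes and itaconate were split, with 3 of 17 measured genes lower and 2 higher (median -0.25). Nos2, the inducible nitric oxide synthase, was at 1.52 and 2.69 (2.26-fold higher), whereas Ass1, which regenerates its substrate arginine, was at 3.13 and 1.05 (4.23-fold lower). Ptgs1, the constitutive cyclooxygenase, was at -1.30 and 1.25 (5.85-fold higher), and Ptgs2, the inducible one, at 6.28 and 5.86 (not called). Hdc, which makes histamine (2.42-fold), and Alox5, which starts leukotriene synthesis (2.05-fold), were lower. Acod1, the itaconate enzyme, was at 9.35 and 8.94.

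Osteoclast genes, which RAW264.7 cells can switch on as precursors of bone-resorbing cells, leaned upward, with 4 of 11 measured genes higher, 0 lower and a median of 0.44. Acp5, the tartrate-resistant acid phosphatase, was at 6.29 and 8.13 (3.58-fold higher). Ctsk, the bone collagenase cathepsin K, was at -0.996 and 0.44 (2.71-fold higher), Mmp9 at -1.82 and -0.22 (3.03-fold higher) and Atp6v0d2, a proton pump subunit, at 0.65 and 1.96 (2.49-fold higher). The regulators Nfatc1 (difference 0.44) and Mitf (0.094) were not called.

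Macrophage identity genes had 1 of 27 measured genes lower and 2 higher (median -0.17). Fcgr1, the high-affinity IgG receptor and a known interferon target, was at 0.93 and -1.54 (5.54-fold lower). Axl, a kinase receptor that helps macrophages clear dying cells, was at 0.97 and 2.69 (3.31-fold higher), and the transcription factor gene Maf was well above background only on the knockdown array, at least 5.86-fold higher there, but had a difference of 0.43 with the median over its probes. Matrix and protease genes had 3 of 10 measured genes higher and 0 lower (median 0.0070): Timp1, an inhibitor of metalloproteases, was at 2.60 and 4.68 (4.22-fold higher), and Mmp13 and Timp2 were 3.03-fold and 2.33-fold higher. Markers of stromal, epithelial and red cells had 9 of 16 measured, with Col1a1 2.02-fold lower and Pdgfrb 2.49-fold higher from dim probes.

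Of all measured genes 2.66% were called lower and 1.88% higher, so a short list can hold no call without being unusual. Several such groups held no called gene. These were 32 measured cell cycle genes (median -0.069), 23 cholesterol and lipid genes (-0.25), 18 lysosome genes (-0.11), 17 glycolysis and hypoxia genes (-0.041), 16 hnRNP genes (-0.0010) and 20 cytosolic ribosomal protein genes (-0.0070). The ribosomal genes spanned only -0.082 to 0.12. Among 13 genes of the microRNA machinery, which the artificial microRNAs of both lines use, 12 had positive differences (median 0.24). The largest was that of Ago4 (-1.61 and -0.92, difference 0.69), and none was called. In DMEM the median of the same 13 genes was -0.086.

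**Figure D4:**
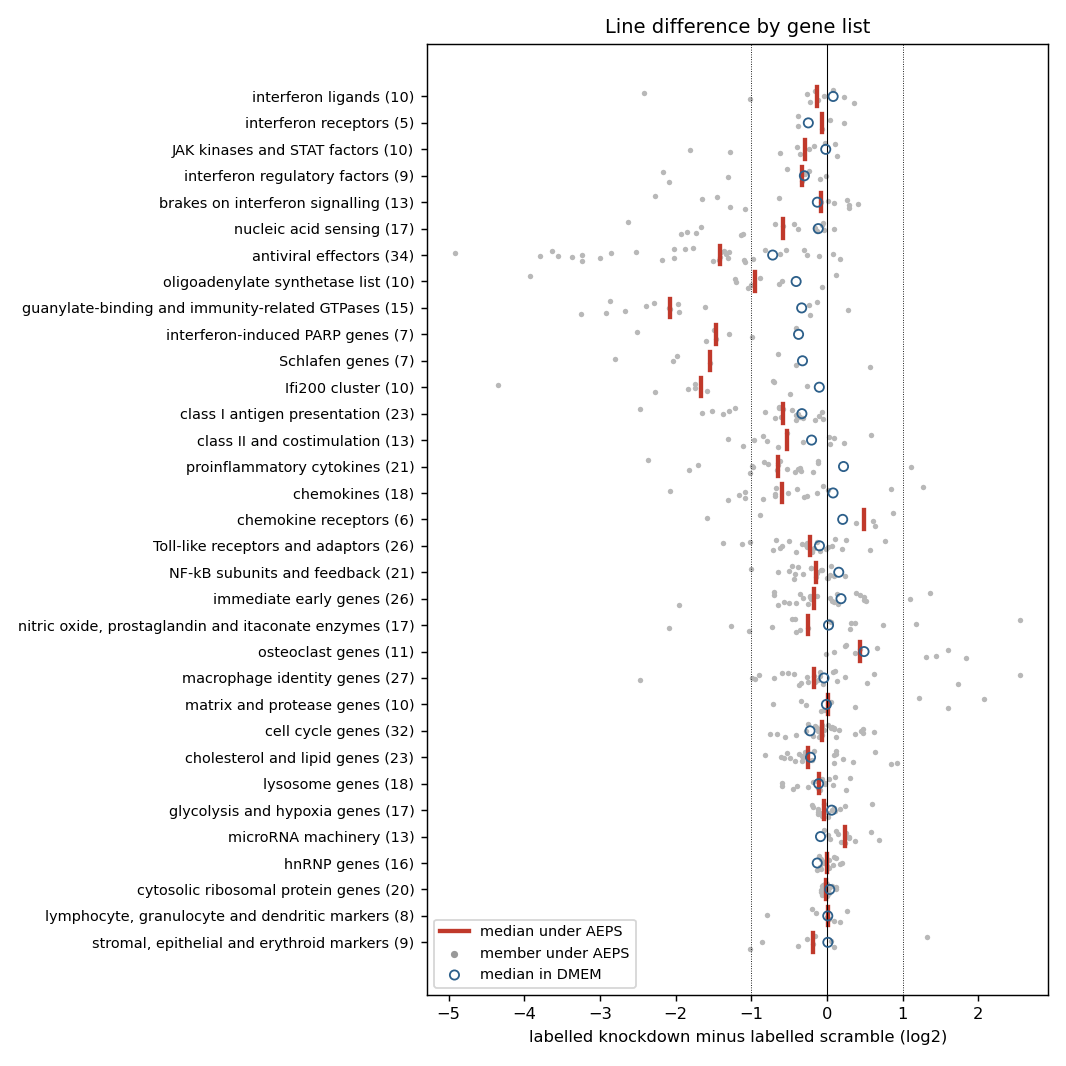
Difference under AEPS (x, log2, labelled knockdown minus labelled scramble) of each measured member of 33 gene lists (grey points, number measured in brackets), with the list median under AEPS (red bar) and in DMEM (blue circle), and dotted lines at 2-fold. The effector lists from antiviral genes to the Ifi200 cluster have red bars between -2.08 and -0.95, while the housekeeping lists at the bottom lie near 0.

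The single genes that differed most were largely outside these lists. By a rule that also required 2-fold with both other normalizations, the largest positive difference was that of Slc9b2, a sodium/proton exchanger, at -2.30 on the scramble array and 2.14 on the knockdown array (21.7-fold higher, probe on chromosome 3, 135005416 to 135005475, mm9). Zfp462, a zinc finger gene, was at -4.41 and -0.20 (18.5-fold), and Pvt1, the non-coding neighbour of Myc, at 1.32 and 5.18 (14.5-fold), while Myc itself had a difference of 0.13. Prkar2b, a regulatory subunit of protein kinase A (13.4-fold), Gkap1 (13.2-fold), Sec16b (11.7-fold) and Sema7a (8.64-fold) followed. Rtl8c (11.6-fold) and Rtl8b (10.3-fold) lie side by side on the X chromosome and have similar sequences, so their probes may share signal, and with the median over its probes in place of the brightest Rtl8c had a difference of -0.31. Among genes seen only on the knockdown array the largest limits were Wnt10b (at least 27.1-fold), Maged1 (21.5-fold), Sapcd1 (18.5-fold) and Fhit (15.7-fold), whose differences with normexp were 2.67, 2.51, 2.21 and 2.01 (log2) beside 4.76, 4.42, 4.21 and 3.97.

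Among the 10 most negative differences, 5 belonged to the interferon effector lists: Mx1, Ifi209, Oasl2, Ifit2 and Rsad2. Marcks, a membrane-bound protein kinase C substrate, was at 2.06 and -2.36 (21.4-fold lower). Lin28b, which blocks the maturation of let-7 microRNAs, was at -0.32 and -4.70 (20.8-fold lower). Igf2bp1, an RNA-binding protein gene of embryonic cells, was well above background only on the scramble array, at 2.02 (at least 112-fold). Fam149a (49.4-fold), Hoxb13 (17.9-fold) and Peg12 (17.3-fold) were seen likewise only there. These limits hold for the main setting: with normexp the differences were -4.69 for Igf2bp1, -3.50 for Fam149a, -2.21 for Hoxb13 and -2.12 for Peg12, beside -6.81, -5.63, -4.16 and -4.11. With the median over its probes Fam149a had -3.12. Lin28b had -2.34 and Mx1 -3.26 with normexp, beside -4.38 and -4.91. The Igf2bp1 and Hoxb13 probes lie near each other on chromosome 11 (95824526 to 95824585 and 96057854 to 96057913, mm9). Sly (2.28 and -3.88, 71.5-fold lower) and Zfp979 (13.03-fold lower) belong to repeated gene families, and the Btg3 probe (113-fold lower) is placed by the array on chromosome 17 and is of uncertain identity, so these 3 values may not be of single genes, and with the median over its probes Sly had a difference of 0.19.

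The DMEM pair, which shares no array with the AEPS pair, shows which differences were present without the stimulus. In DMEM 546 of 23061 genes (2.37%) were called higher on the array labelled knockdown and 346 (1.5%) lower. Of 21897 genes measured in both media, 369 were higher under AEPS and 413 in DMEM, and 179 were higher in both, which is 48.5% of the AEPS list and 43.3% of the DMEM list. Lower in both were 180, which is 38.0% of 474 under AEPS and 61.4% of 293 in DMEM. Opposite calls were made for 8 genes. The largest positive differences recurred: the DMEM difference was 4.24 for Slc9b2, 4.54 for Zfp462, 3.83 for Pvt1 and 4.13 for Prkar2b, beside 4.44, 4.21, 3.86 and 3.75 under AEPS. Sly (-6.30) and Zfp979 (-3.65) recurred as well.

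Fewer interferon effector genes were called in DMEM. There 18 of 77 measured genes were lower and 0 higher, with 0 of 9 in the Ifi200 cluster and 0 of 5 Schlafen genes among them, with a median of -0.46, beside 56 of 83 and -1.47 under AEPS. Over the members measured in both media, the medians were -1.40 under AEPS and -0.72 in DMEM for antiviral effectors (31 genes, 29 of them more negative under AEPS), -1.98 and -0.46 for the guanylate-binding and related GTPases (11 of 11) and -1.15 and -0.094 for the Ifi200 cluster (8 of 8). Whether the gap differs between the media could not be tested with 1 array a group. In DMEM Ifit1 was at -1.95 (scramble) and -3.97 (knockdown), Rsad2 at -2.46 and -4.47, Isg15 at 1.67 and 0.50 and Cxcl10 at 2.41 and 0.84, so that for these genes the array labelled knockdown was lower in each medium. Fewer responding cells and less RNA per cell cannot be told apart in such bulk samples.

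Some gaps were past 2-fold under AEPS and small in DMEM. Among 20329 genes on all 4 arrays 353 were 2-fold lower under AEPS, and 131 of them lay within 1.5-fold in DMEM. The largest of the 131 were Tgtp2 (DMEM difference -0.17), Gbp5 (0.17), Tap1 (-0.022), the tetraspanin gene Tspan33 (-2.40 under AEPS and 0.23 in DMEM), Ifi202b (-0.063) and the adhesion gene Nectin2 (-2.16 and -0.39), followed by Gbp9, Irf1 (-0.29), Ass1 (-0.52) and Slfn4 (-0.52). Some were dim in DMEM: Gbp5 was at -4.685 and -4.515 (scramble, then knockdown), Tgtp2 at -3.6 and -3.767 and Gbp9 at -3.506 and -3.963. The lowest levels well above background there were -5.374 and -4.713. A small gap between dim signals may not show that the lines were equal. Brighter were Irf1 (2.075 and 1.781) and Ifi202b (0.982 and 0.919). Higher under AEPS were 283, of which 80 lay within 1.5-fold in DMEM, led by Cubn, a scavenger receptor gene (2.01 and -0.16), Trim47 (1.75 and 0.11), Dlg3 (1.75 and 0.49) and Mapk12, a stress kinase gene (1.68 and 0.21). Under AEPS Cubn had 1.03 with normexp and 1.06 with the median over its probes. These genes were picked for this pattern from the values, which are therefore a description.

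The reverse pattern, also picked from the values, was a gap past 2-fold in DMEM and within 1.5-fold under AEPS. It was found for 96 of 296 genes higher in DMEM and for 34 of 221 lower there. Cd300e, an activating myeloid receptor, differed by 3.85 in DMEM (-1.91 and 1.94) and by 0.53 under AEPS (1.56 and 2.09). Il1b differed by 2.56 in DMEM (-4.76 and -2.20) and by -0.35 under AEPS, and Slpi, a protease inhibitor, by 2.13 and 0.27. Cytip, which regulates adhesion, differed by -1.71 in DMEM and by 0.17 under AEPS. The cytokine list as a whole had a median of 0.22 in DMEM and -0.72 under AEPS over 12 genes measured in both, and osteoclast genes had 0.36 and 0.44 over 9.

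**Figure D5:**
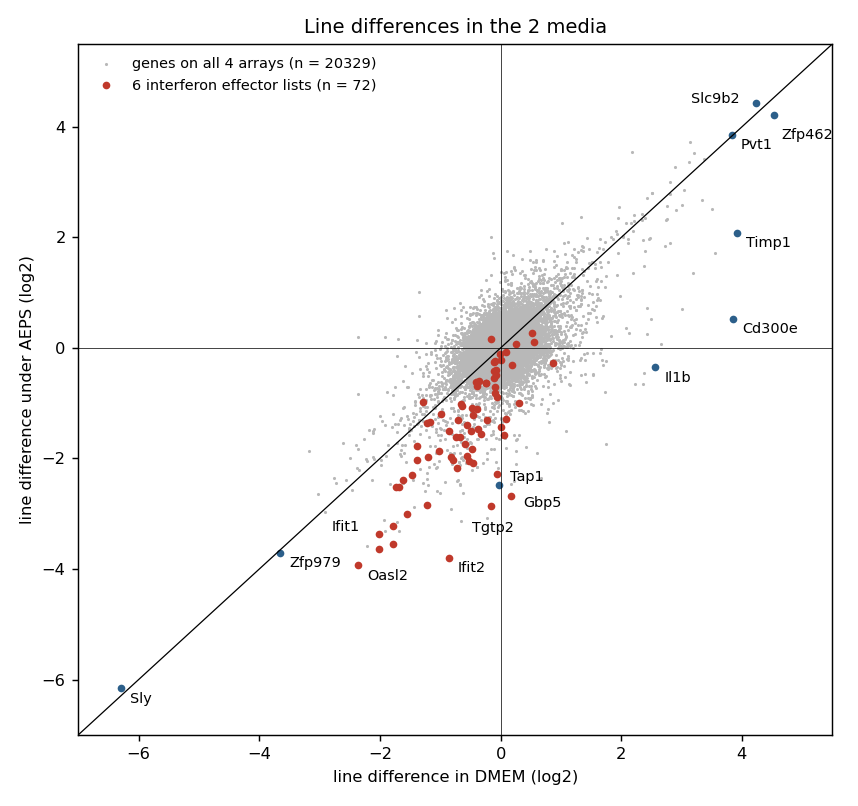
Difference between the lines in DMEM (x) and under AEPS (y), both log2, labelled knockdown minus labelled scramble, for 20329 genes on all 4 arrays, with 1 point a gene, a diagonal at equal differences, 72 genes of the interferon effector lists in red and other labelled genes in blue. Slc9b2, Zfp462, Pvt1, Zfp979 and Sly lie near the diagonal, most red points lie below it, and Cd300e and Il1b lie far to its right.

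The line effect over both media was the only one that could be tested. An additive limma model of line and medium over the 4 arrays has 1 residual degree of freedom, and its residual is the difference between the 2 line effects, so a gene whose gap depends on the medium is less easily called. Of 22332 genes 89 (0.399%) were higher and 76 (0.34%) lower at an adjusted p under 0.05, and their p-values rest on no spread other than that among 4 arrays, which may be technical. Slc9b2 had 4.34 ± 0.13 (SE, limma adjusted p = 0.0196), Pvt1 3.84 ± 0.11 (limma adjusted p = 0.0196), Sly -6.23 ± 0.12 (limma adjusted p = 0.0146) and Lin28b -4.30 ± 0.12 (limma adjusted p = 0.0196, with the knockdown array not well above background in DMEM). Each of these 4 effects had the same direction in both media, which the fit favours by design and which is no separate support. With the median over its probes Sly had a difference of 0.19 under AEPS.

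Few list members passed. Of 80 genes of the interferon effector lists in the limma fit 0 did at an adjusted p under 0.05, while 52 were lower and 1 higher at an unadjusted p under 0.05. Over all 22332 genes of the fit, 3238 had an unadjusted limma p under 0.05. No other tool was run. These genes had limma adjusted p of 0.259 for Mx1, 0.103 for Ifit1, 0.122 for Rsad2 and 0.0666 for Isg15. Among nucleic acid sensors Ifih1 fell by 1.76 ± 0.12 (SE, limma adjusted p = 0.0368) and Dhx58 fell by 1.72 ± 0.11 (limma adjusted p = 0.0316). Atf3 fell by 1.80 ± 0.14 (limma adjusted p = 0.04), Ctsk rose by 1.501 ± 0.12 (limma adjusted p = 0.0421) and Ptgs1 rose by 2.25 ± 0.19 (limma adjusted p = 0.0496). Ifnb1 (limma adjusted p = 0.257), Irf7 (0.251), Usp18 (0.14) and Cxcl10 (0.0645) did not pass, and this does not show that they were equal. The number of calls varied from 0 to 1268 with the settings of this fit, so single calls are fragile.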

How the data were processed

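Single-colour Agilent arrays of 4 RNA samples were analysed, 1 a group. Per the file headers, the deposited intensity values come from Agilent Feature Extraction 10.7.1.1, which subtracted background to give the processed signal, and probes carry mm9 positions. Control spots and outlier spots were left out, log2 was taken of the deposited intensity, each array's 75th percentile was subtracted, and spots of 1 probe were averaged. The series value table, in deposited log2 values with no stated method in the labels used, served as an alternative, and its centring stays unknown. Where a gene had several probes, 1 probe stood for it, chosen by brightness over the arrays. Names came from the RefSeq gene table for 26685 probes by accession, 2538 by symbol and 474 by synonym, and 25984 kept the array's own name.

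A limit of a fold used, for the dim array, the higher of its own level and the lowest level among probes well above background. The line effect was fitted with limma 3.58.1 in R 4.3.3 with Benjamini-Hochberg adjustment over 22332 genes above background on at least 2 arrays, after a check on simulated data. Genes named for size were the 10 largest differences in each direction on both arrays that also reached 2-fold with normexp and quantile normalization, and the 4 largest limits each way; the other names are list members or, where stated, were chosen from their values. Members and lists were chosen with earlier results of these data known. Near-identical copies (Ifit3 and Ifit3b, Slfn, Gbp, Oas1, Ifna and H2 genes) may share signal. Some items within these rules and lists are not reported here.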

Additional observations from a re-analysis of the deposited data

Results flagged for a closer look

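For 8 features of 21897 measured in both media the 2 lines differed at least 2-fold in opposite directions in the 2 media. With 1 array a group this contrast was not tested. All of them except Hdac9 were dim on 1 array of each pair, at levels of -4.454 or lower. The lowest levels well above background on the 4 arrays were between -5.374 and -4.713. Differences (log2, labelled knockdown minus labelled scramble) are given under AEPS and then in DMEM. Rsph4a, a gene of ciliary radial spokes, had -1.739 and 1.748. Hdac9, a histone deacetylase gene, had 1.012 and -1.360. AK044696 had -1.51 and 1.083. Some of the others rest on limits, since 1 array of a pair was not well above background. Nod1, the sensor of bacterial peptidoglycan, had limits of -1.117 and 1.887, and its value under AEPS was -0.147 with normexp. Nms, which encodes neuromedin S, had limits of -1.224 and 2.168. Gm16475 had a limit of -1.05 under AEPS and 1.279 in DMEM, and LOC677484 had -2.477 and a limit of 1.299. An unnamed long intergenic RNA probe of chromosome 3 had limits of -1.085 and 2.036.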

How the results depend on the processing

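With 1 array a group there is no replicate to leave out, and spot background, normalization and probe choice were varied instead. No paired analysis was possible because the groups share only 1 replicate number. Calls under AEPS, 428 higher and 607 lower, were 156 and 329 with normexp background correction, 283 and 353 with only genes above background on all 4 arrays, and 126 and 278 at 3-fold. Genes called the same way in both media, 359, were 171 with normexp. The limma count, 165, was 740 with normexp, 81 with the percentile over detected probes, 30 with the median of probes, 344 with genes on all 4 arrays, 1268 with a trended prior and 0 without a filter (3057 at an unadjusted p under 0.05). Under the labels of the value table the signs turned: the list medians were 1.38 for antiviral effectors, 0.53 for chemokines, 0.67 for cytokines and -0.49 for osteoclast genes. The chemokine median was -0.46 with normexp, -0.52 with quantile normalization and -0.52 with genes on all 4 arrays. The cytokine median was -0.48 with normexp and -0.72 with genes on all 4 arrays, and the osteoclast median 0.35 with normexp and 0.54 with the median of probes. Of 181 genes named in the text, 164 kept direction and side of the 2-fold line with normexp and 17 dropped below it, and 177 kept both with quantile normalization. With the median of probes 172 did, while Rtl8c turned to -0.313, Sly to 0.191 and Gbp6, not called before, to -3.99. Iigp1 (-1.30) and Sp110 (-1.53) also gained a call, and Adar, Csf1, Fosl2 and Maf lost it. Of 121 named genes that differed at least 2-fold, 40 moved by over 1.5-fold with normexp, and 40 of these became smaller in size, among them Tgtp2 (-1.32), Slfn5 (-1.01), Tap1 (-1.50), Ifi209 (-2.90), Btg3 (-4.70) and Zfp462 (2.47). The normexp offset of 50 draws differences of dim genes toward 0, so a shift to smaller values was partly built in. Its share in these moves, and the causes of the other changes, were not tested.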
